A study of Manihot esculenta with 9 samples.

Results

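The shared response of cassava leaves to ABA and to PEG was measured against untreated seedlings as 1 contrast, the mean of the ABA and PEG log2 expression minus that of the MS control. It was run over all 33033 genes of the authors' deposited table, of which 23984 had enough reads to be tested. A gene was counted as shared when it changed at least 2-fold in the same direction under ABA and under PEG and passed edgeR's quasi-likelihood test in each comparison and in the combined contrast, at a Benjamini-Hochberg adjusted p under 0.05 over all genes tested. By this rule 1129 genes were 2-fold up in each treatment, which is 4.71% of the genes tested. A further 482 genes, or 2.01%, were 2-fold down in each, so that 1611 genes met the rule in all. The sizes that put a gene in these sets are given as a description.

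All 9 libraries were made from mature leaves of wild-type seedlings of the genotype TM60444, raised from stem pieces in sterile bottles of MS medium, a standard plant culture medium. The seedlings were 60 days old when ABA, to 50 μmol as the labels give it, or PEG (polyethylene glycol), to 7%, was added to the medium, and leaves were taken 48 h later. The MS control seedlings shared the genotype, the age and the medium and received neither agent. The labels give the 48 h for the treated libraries only. Each group holds 3 libraries. They are described as biological replicates, but no source used here says whether they are separate plants, so p-values measure the spread between these libraries.

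ABA is the hormone that plants make when water is short, and it closes stomata and switches on protective genes. PEG stays outside the cell and draws water from the tissue, so that it imitates drought without adding the hormone. In a fully grown leaf most cells have stopped dividing, and class I KNOX genes, which keep the cells of the shoot tip undifferentiated, are normally kept silent.

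Total counts ran from 13923803 to 17108746 reads per library. The correlation of log2 CPM (counts scaled to library size) across genes was at least 0.985 within each group, 0.918 to 0.919 between MS control and ABA libraries, 0.890 to 0.892 between MS control and PEG libraries and 0.854 to 0.855 between ABA and PEG libraries, so the treated groups were less alike than either was to the MS control. Leaf genes were high in all groups, with the summed level of the photosystem subunits at 6763 to 7111 FPKM (read fragments scaled to gene length and library size) in the MS control, 3558 to 3679 under ABA and 12904 to 13106 under PEG. The clade A protein phosphatases 2C, which ABA is known to switch on, rose under ABA in 12 of 14 genes and fell under PEG in 10 of 14. Over all genes tested 32.9% rose and 33.4% fell under ABA, and 35.6% rose and 35.1% fell under PEG. Whether MS control and PEG libraries were swapped cannot be told apart with these data. Directions follow the labels, and every gene below rests on the same MS control libraries, so a property that sets these libraries apart cannot be told apart from a response to both agents. In 210 genes, libraries of 1 group differed at least 8-fold with 100 or more reads, and 0 of these genes are among the 1129 and 4 among the 482.

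The combined contrast itself was broad and mostly shallow. At the adjusted p threshold 15423 genes passed edgeR's quasi-likelihood test, which is 64.3% of those tested, with 7220 rising (30.1%) and 8203 falling (34.2%). The median size of a passing change was 0.47 on the log2 scale, and the median over all genes tested was -0.02. A rise of at least 2-fold in the mean of both treatments was seen in 2007 genes and a fall of that size in 1372. When the ABA and PEG libraries were fitted as 1 treated group, so that the difference between the agents counts as spread, 5050 genes passed, but 1088 of the 1129 and 413 of the 482 shared genes still did.

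Genes 2-fold up in each treatment were mostly weakly expressed in the MS control, and those 2-fold down were not. The median level of the 1129 rising genes was 0.408 FPKM in MS control leaves, 1.57 with ABA and 2.90 with PEG. The median level of the 482 falling genes was 6.76 FPKM in MS control leaves, 1.91 with ABA and 1.96 with PEG, beside a median of 10.1 FPKM in the MS control over all genes tested. A group mean of at least 5 FPKM was reached by 374 rising genes (33.1%) and by 282 falling genes (58.5%). A gene near 0 in the MS control passes the filter on low counts only where its treated libraries are high, so the number of rises among weak genes depends on the filter. Where a mean of at least 5 FPKM over the 9 libraries was asked for, 209 genes rose and 185 fell by the same rule.

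The libraries of these genes were well separated. In 1097 of the 1129 every ABA and PEG library lay above every MS control library, an order that 16.0% of all genes tested show. In 474 of the 482 every treated library lay below, against 14.5% of all genes tested. The rule itself asks for large differences, so these counts describe it. At least 4-fold changes in each treatment were found in 416 rising and 85 falling genes, and at least 8-fold changes in 129 and 12.

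**Figure D1:**
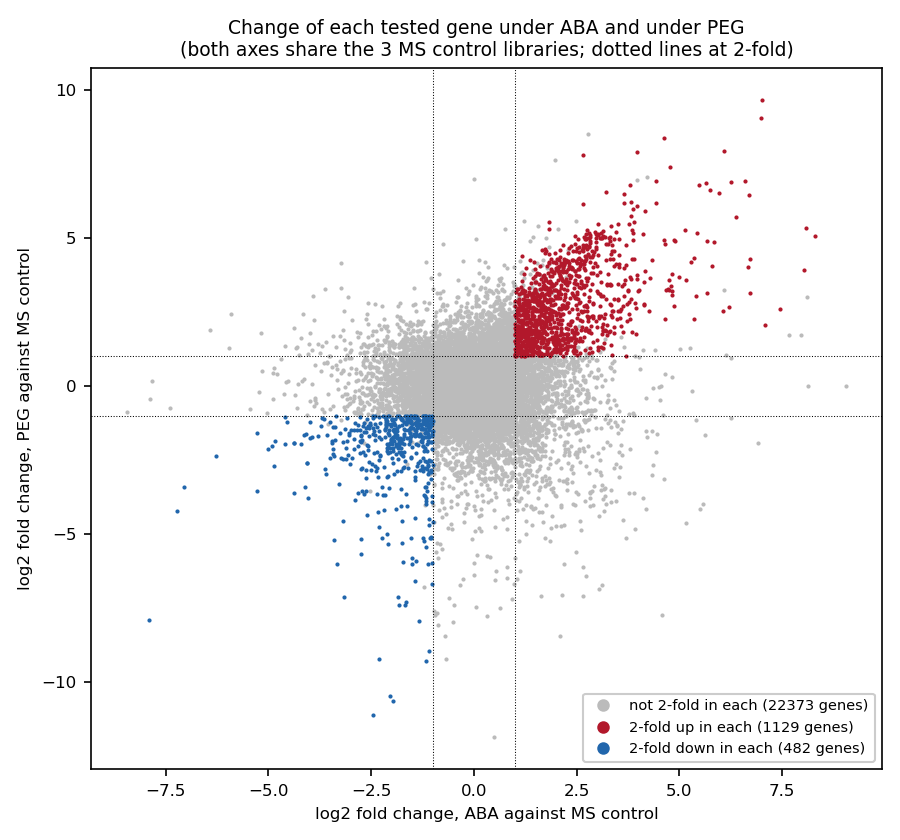
Log2 fold change of each of the 23984 tested genes under ABA (x axis) and under PEG (y axis), both against the 3 MS control libraries. Red points are the 1129 genes 2-fold up in each treatment, blue points the 482 genes 2-fold down in each, grey points the other genes (those beyond both dotted lines did not pass all tests); the red cloud is denser and reaches farther under PEG than under ABA.

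The class I KNOX genes were, of the 56 gene lists, the list in which every tested member met the rule. This list was added after the values had been seen. A member near 0 in the MS control is tested only where treated libraries are high, so the filter partly sets this share. The table holds 9 genes whose nearest Arabidopsis gene is *STM*, *KNAT1*, *KNAT2* or *KNAT6*, the homeobox genes of this class, and 8 were tested. All 8 rose at least 2-fold under ABA and under PEG, beside 4.71% of all genes tested. Their median combined log2 fold change was 3.69. The summed level of the class was 3.94 to 5.04 FPKM in the MS control libraries, 44.3 to 45.5 under ABA and 42.1 to 45.4 under PEG. The ninth gene, Manes.13G027300, had 0 reads in MS control leaves, 16 with ABA and 14 with PEG, too few to be tested.

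Manes.05G184900 on chromosome 5 (25387709 to 25394220, cassava genome v6.1), nearest to *KNAT1*, had 0.605, 0.390 and 0.418 FPKM in MS control leaves, 13.5, 12.5 and 12.2 under ABA and 7.63, 6.96 and 6.78 under PEG. The groups were far apart, and the combined log2 fold change was 4.30 (standard error 0.13, edgeR's quasi-likelihood test, adjusted p = 1.68e-10). Its copy Manes.18G051700 on chromosome 18 had 0.257, 0.361 and 0.197 FPKM, then 3.79, 4.29 and 3.65, then 6.35, 5.57 and 5.56 in the same order. The copies ranked the agents differently, since the first was higher under ABA by 1.03 and the second higher under PEG by 0.38 on the log2 scale. Both differences passed edgeR's test of PEG against ABA, with adjusted p = 8.36e-07 and 0.0102.

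The gene nearest to *STM*, which Arabidopsis needs to keep a shoot meristem, is Manes.16G003000. It had 0.999, 0.561 and 0.637 FPKM in the MS control, 9.32, 9.57 and 10.4 with ABA and 10.7, 10.04 and 10.05 with PEG, so both agents brought it to levels that overlapped. In the fit, whose scaling of libraries is not that of FPKM, the difference of PEG from ABA was of the other sign, -0.13 on the log2 scale (standard error 0.11, edgeR's quasi-likelihood test, adjusted p = 0.31). Manes.12G025600, nearest to *KNAT6*, rose most in the class, from 8 reads over the 3 MS control libraries to 312 under ABA and 182 under PEG. The smallest rise was that of Manes.09G176900, another *KNAT6* relative, with 1.55, 1.84 and 1.41 FPKM in the MS control, then 2.91, 3.52 and 3.93 under ABA and 7.32, 7.39 and 7.22 under PEG. Its lowest treated library still lay above its highest MS control library.

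**Figure D2:**
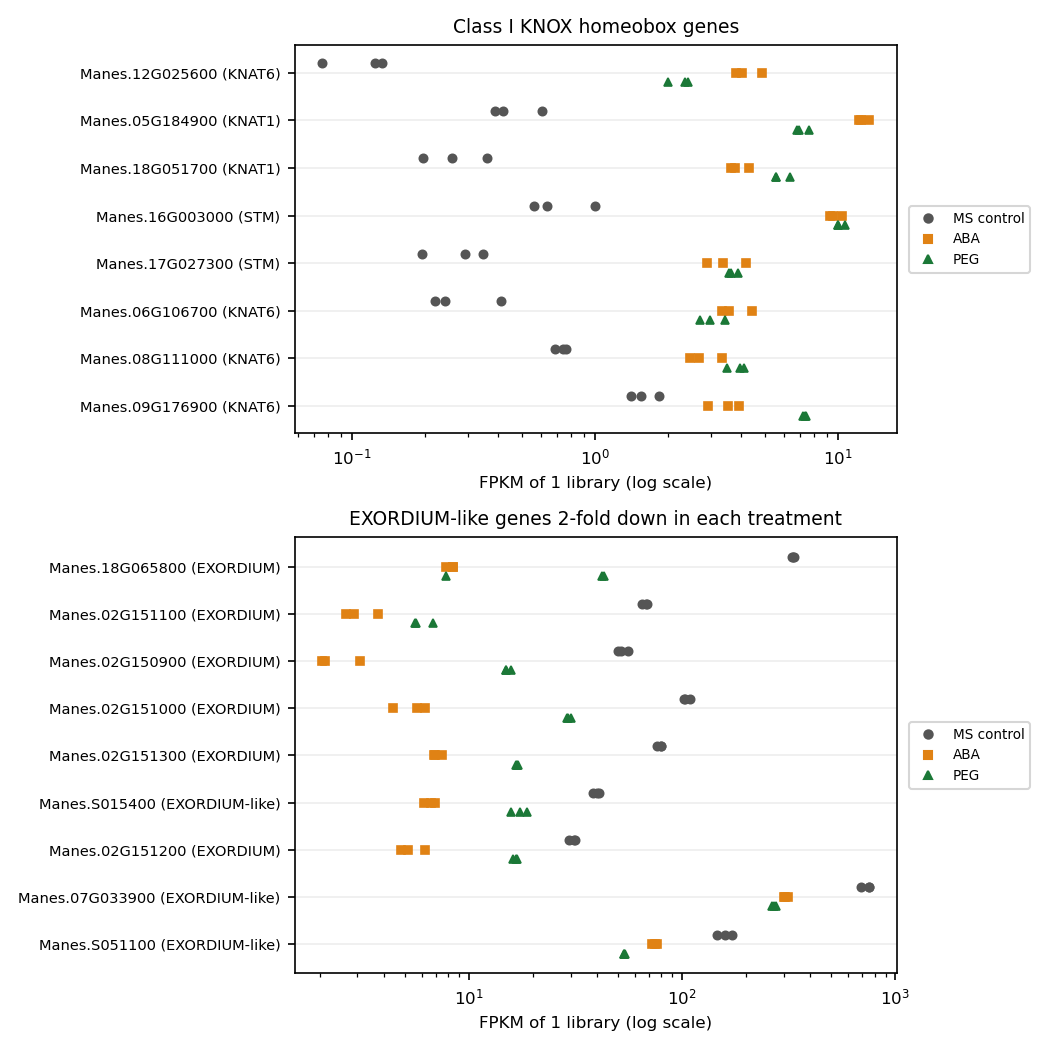
Level of each of the 9 libraries in FPKM on a log axis, for the 8 tested class I KNOX genes (top) and the 9 EXORDIUM-like genes 2-fold down in each treatment (bottom), with circles for MS control, squares for ABA and triangles for PEG. Every treated library of the KNOX genes lies above, and every treated library of the EXORDIUM-like genes below, the MS control libraries of the same gene.

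Many genes of cell division rose, with higher list medians under PEG than under ABA. Of 70 tested cyclins and cyclin-dependent kinases, which drive the cell cycle, 45 rose and 9 fell in the combined contrast. Over all genes tested 30.1% rose and 34.2% fell. Of the 70, 26 (37.1%) were 2-fold up and 0 were 2-fold down in each treatment, beside 4.71% and 2.01% of all genes tested. At that last share few of 70 genes would be 2-fold down, so nothing is read from the 0. Under ABA alone 40 of the 70 rose and 9 fell, and under PEG 52 rose and 10 fell. The median log2 fold change of this list was 0.36 under ABA and 1.40 under PEG, and the difference between the agents was not tested for the list. Among the B-type members, which act at mitosis, all 6 tested cyclins and all 3 tested cyclin-dependent kinases named as such in the table were 2-fold up in each. In leaf tissue, more dividing cells and more RNA per dividing cell cannot be told apart.

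Manes.18G001200, nearest to the mitotic kinase gene *CDKB2;2*, had 0.332, 0.133 and 0.161 FPKM in MS control leaves, 1.38, 1.22 and 2.30 under ABA and 8.73, 7.79 and 7.41 under PEG. The rise was 3.02 under ABA and 5.12 under PEG on the log2 scale, and PEG was above ABA by 2.09 (standard error 0.20, edgeR's quasi-likelihood test, adjusted p = 1.52e-06). Manes.18G004700, nearest to the mitotic cyclin gene *CYCB2;4*, had 0.0877, 0.0821 and 0.298 FPKM in the MS control, 1.85, 1.32 and 1.52 with ABA and 6.28, 5.71 and 5.47 with PEG. Manes.02G112900, nearest to *CYCB2;3*, kept the direction but turned the order of the agents. It had 1.45, 1.72 and 1.56 FPKM in the MS control, then 23.0, 23.2 and 23.6 under ABA and 5.54, 5.58 and 6.48 under PEG.

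D-type cyclins, which carry signals for growth to the cell cycle, were among the 26. Manes.07G076800, nearest to *CYCD3;1*, had 0.267, 0.250 and 0.303 FPKM in MS control leaves, 0.918, 1.15 and 1.08 under ABA and 6.92, 7.13 and 6.65 under PEG. Manes.10G084500, nearest to *CYCD1;1*, was instead highest under ABA, with 0.177, 0.0828 and 0.0501 FPKM in the MS control, 1.52, 2.02 and 2.12 with ABA and 0.776, 0.600 and 0.570 with PEG. In neither gene did a treated library reach into the range of the MS control.

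DNA replication and chromosome genes rose in larger number under PEG. Of 96 tested genes of DNA replication and histones 62 rose and 12 fell, beside 30.1% and 34.2% of all genes tested. Of the 96, 22 (22.9%) were 2-fold up and 0 were 2-fold down in each treatment, beside 4.71% and 2.01% of all genes tested. Under ABA 41 rose and 18 fell, under PEG 72 rose and 11 fell, and the summed level of the list was 3088 to 3277 FPKM in MS control libraries, 2720 to 2734 in ABA and 4831 to 4923 in PEG libraries, so that the sum was lowest under ABA. The subunits of the MCM helicase, which opens the DNA double strand before it is copied, made up 9 of these 22, and 12 of the 13 tested MCM genes rose, with a median log2 fold change of 1.303 under ABA and 2.64 under PEG. Of 48 tested histone genes 29 rose and 10 fell, and 10 were 2-fold up in each, with a median of 0.14 under ABA and 1.62 under PEG. Manes.14G013600, a histone gene, had 3.15, 2.78 and 2.97 FPKM in the MS control, then 10.6, 8.37 and 9.30 under ABA and 79.6, 80.8 and 79.1 under PEG. Its rise was larger under PEG than under ABA by 2.88 on the log2 scale (standard error 0.09).

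Of 68 tested kinesins and tubulins, the motors and the fibres of the spindle and cytoskeleton, 47 rose and 11 fell. Over all genes tested 30.1% rose and 34.2% fell. Of the 68, 16 (23.5%) were 2-fold up in each, beside 4.71% of all genes tested. Under ABA 31 rose and 15 fell, with a median of 0.14, and under PEG 56 rose and 6 fell, with a median of 0.73. The summed level of this list went from 1496 to 1509 FPKM in MS control libraries down to 1259 to 1280 under ABA and up to 2240 to 2261 under PEG. Manes.13G102000, a kinesin gene, had 0.206, 0.0771 and 0.175 FPKM in MS control leaves, 1.37, 1.41 and 1.13 under ABA and 6.65, 6.33 and 6.26 under PEG. Of the 21 tested HMG box proteins, which bend DNA in chromatin, 9 rose and 2 fell, while under ABA alone 7 rose and 7 fell. The lists of kinesins and tubulins and of HMG box proteins were added after the values had been seen. Of the 21 HMG box proteins 4 (19.0%) were 2-fold up in each, beside 4.71% of all genes tested. Manes.02G012100, one of these 4, went from 59 reads over the MS control libraries to 575 under ABA and 3057 under PEG. Ribosomal proteins did not share this direction, since 278 of 352 fell and 9 rose, with a median of -0.31. Over all genes tested 34.2% fell and 30.1% rose. Of the 352, 0 were 2-fold in each, beside 4.71% up and 2.01% down of all genes tested.

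Transcription factors of leaf and organ growth included several of the shared rises. Of 39 tested growth-regulating (GRF) and TCP factors, 6 (15.4%) were 2-fold up and 0 were 2-fold down in each treatment. Over all genes tested these shares were 4.71% and 2.01%. In all, 17 of the 39 rose and 15 fell, beside 30.1% and 34.2% of all genes tested. The GRF and TCP list was added after the values had been seen. Manes.09G059500, nearest to *GRF4*, which promotes cell proliferation in Arabidopsis leaves, had 0.242, 0.317 and 0.205 FPKM in the MS control, 2.08, 2.02 and 3.34 with ABA and 3.30, 2.87 and 2.80 with PEG. Manes.12G117800, nearest to *AINTEGUMENTA* (AT4G37750), a gene that prolongs growth of Arabidopsis organs, had 1.65, 2.01 and 1.98 FPKM, then 5.254, 5.46 and 5.6001, then 10.4, 11.1 and 10.5 in the same order. For both genes all 6 treated libraries were above the MS control. Of 28 tested gibberellin genes, 13 rose, 7 fell and 6 (21.4%) were 2-fold up in each. Among these 6 was Manes.02G046400, a GAST1 homolog, at 3.53, 4.10 and 4.04 FPKM in the MS control. It had 17.5, 14.5 and 13.8 FPKM under ABA and 82.8, 79.9 and 88.4 under PEG.

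Genes that modify the cell wall divided by family. The 59 tested expansins and xyloglucan endotransglucosylases were spread over both directions. Of the 59, 9 (15.3%) were 2-fold up and 12 (20.3%) were 2-fold down in each treatment, beside 4.71% and 2.01% of all genes tested. Of the 24 tested expansins, which loosen the wall during growth, 6 were 2-fold up and 0 were 2-fold down in each. At 2.01% few of 24 genes would be 2-fold down, so nothing is read from this 0. Of the 29 tested xyloglucan endotransglucosylases, which cut and rejoin the xyloglucan between cellulose fibrils, 10 were 2-fold down and 3 were 2-fold up in each. The expansin-like proteins, a related group whose role in the wall is less clear, supplied the other 2 falls among 6 tested. This division was made after the values had been seen.

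Manes.07G140700, nearest to *EXPA8*, had 3.51, 4.20 and 3.09 FPKM in MS control leaves, 8.83, 8.52 and 8.56 under ABA and 27.5, 27.9 and 26.4 under PEG. Manes.14G146100, nearest to the touch-induced xyloglucan endotransglucosylase gene *TCH4*, went the other way, from 41.4, 42.7 and 44.2 FPKM to 1.16, 1.71 and 1.35 under ABA and 6.11, 8.22 and 7.25 under PEG. Its combined log2 fold change was -3.78 (standard error 0.10, edgeR's quasi-likelihood test, adjusted p = 4.18e-11). A strongly expressed member, Manes.05G199600, fell from 287, 299 and 309 FPKM to 131, 129 and 131 under ABA and 28.4, 26.6 and 28.8 under PEG. So the shared falls in this family differed in which agent went lower.

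Hydrolases of β-glucosides and of cellulose-like glucans held shared rises but no shared falls of 2-fold. Of 41 tested β-glucosidases and family 9 glucanases, 21 rose and 14 fell. Of the 41, 11 (26.8%) were 2-fold up and 0 were 2-fold down in each treatment, beside 4.71% and 2.01% of all genes tested. This list was added after the values had been seen, and its median was 0.17 in the combined contrast. Manes.07G027000, Manes.07G027100, Manes.07G027800 and Manes.07G027900 lie close together on chromosome 7 between positions 2521526 and 2633470, and all 4 were higher under ABA. Manes.07G027800 had 13.98, 13.4 and 13.98 FPKM in the MS control, 379, 382 and 364 with ABA and 136, 137 and 143 with PEG. The sources used here do not say how reads shared by such neighbours were counted, and values may be mixed between copies. Manes.15G132400, nearest to *GH9B1*, an endoglucanase gene, was the reverse, with 0.393, 0.327 and 0.483 FPKM in the MS control, then 5.69, 5.70 and 5.71 under ABA and 16.7, 15.8 and 15.2 under PEG.

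Of the *MePMEs*, whose products remove methyl groups from pectin, 32 were tested. Of these, 4 (12.5%) were 2-fold up and 4 (12.5%) were 2-fold down in each treatment, beside 4.71% and 2.01% of all genes tested. The rising genes were *MePME15*, *MePME17*, *MePME78* and *MePME80*, and the falling ones *MePME27*, *MePME36*, *MePME65* and *MePME77*. *MePME27* and *MePME15* moved by like amounts under both agents, with a difference of PEG from ABA of 0.01 (standard error 0.10) and -0.12 (standard error 0.20) on the log2 scale. *MePME77* had 49 reads over the MS control libraries, 5 under ABA and 0 under PEG. In *MePME78* the levels were 5.36, 6.51 and 6.05 FPKM in MS control leaves, 26.6, 24.3 and 26.2 under ABA and 18.7, 20.5 and 20.5 under PEG.

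Among genes with a description and at least 5 FPKM in a group, the largest shared rise by the smaller of both changes was that of Manes.09G123700, nearest to *WRKY70*, a regulator of salicylic acid defence in Arabidopsis. It had 0.112, 0.105 and 0 FPKM in the MS control, 4.16, 3.39 and 3.41 with ABA and 9.61, 8.64 and 10.2 with PEG. Its rank thus rests on MS control libraries at or near 0 FPKM. Its relative Manes.08G170600, also nearest to *WRKY70*, was already expressed in the MS control and rose from 4.47, 4.18 and 5.30 FPKM to 13.2, 13.98 and 16.03 under ABA and 31.6, 31.2 and 29.7 under PEG. The family as a whole did not follow these genes, since 47 of 85 tested WRKY genes fell and 19 rose. Of the 85, 5 (5.88%) were 2-fold up and 4 (4.71%) were 2-fold down in each, beside 4.71% and 2.01% of all genes tested.

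Manes.02G081800, nearest to the glutathione S-transferase gene *GSTF11*, had 0.348, 0.244 and 0.0740 FPKM in the MS control, then 9.47, 8.73 and 9.43 under ABA and 9.02, 9.71 and 7.65 under PEG. The treated groups overlapped, with a difference of -0.26 (standard error 0.14, edgeR's quasi-likelihood test, adjusted p = 0.108). Most of its family went down, as 35 of 61 tested glutathione S-transferases fell and 11 rose. Of the 61, 10 (16.4%) were 2-fold down and 3 (4.92%) were 2-fold up in each, beside 2.01% and 4.71% of all genes tested. Manes.06G103200, nearest to spermidine synthase 1, an enzyme of polyamine synthesis, had 0.169, 0.158 and 0.144 FPKM in MS control leaves, 8.50, 8.44 and 8.99 under ABA and 2.69, 2.84 and 3.41 under PEG. Manes.09G126000, of the phosphorylase superfamily, went from 45 reads over the MS control libraries to 1808 under ABA and 1087 under PEG.

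Some of the largest rises started from almost no reads. The homeobox gene Manes.02G195000, nearest to *HB33*, had 3 reads over the MS control libraries, 187 under ABA and 118 under PEG. Manes.03G151700, a gene of unknown function with a DUF247 domain, had 1, 32 and 543 reads in the same order, and Manes.03G051600, a small heat shock protein gene, had 1, 133 and 26. No fold is given for these 3 genes. Over the 1129 genes, 17 had no read in the MS control.

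**Figure D3:**
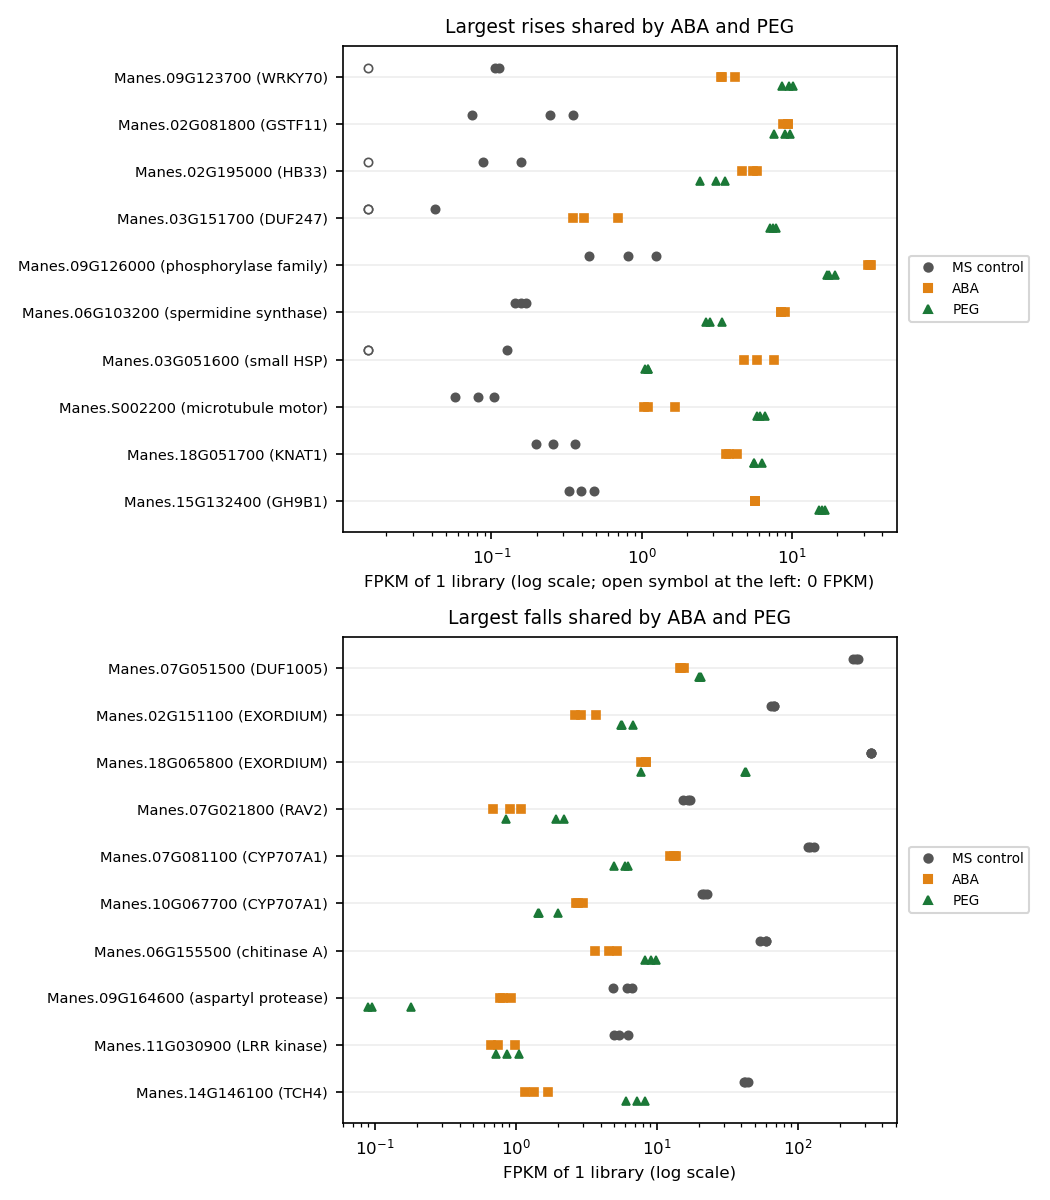
Level of each of the 9 libraries in FPKM on a log axis for the 10 largest rises (top) and the 10 largest falls (bottom) among genes changed at least 2-fold in each treatment, ordered by the smaller of both changes, with open symbols at the left edge for libraries at 0 FPKM. Treated and MS control libraries do not overlap for any of the 20 genes, a separation that the choice of these genes required, while the order of ABA (squares) and PEG (triangles) varies from gene to gene.

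BURP domain genes related to *RD22*, a gene of Arabidopsis that responds to drought and ABA, rose in 6 and fell in 2 of 12 tested members. The 6 that rose (50%) were 2-fold up in each treatment, beside 4.71% of all genes tested. This list was added after the values had been seen. The summed level of the list was 262 to 316 FPKM in MS control libraries, 784 to 836 in ABA and 196 to 208 in PEG libraries, so that the sum was lowest under PEG. Of the 6 genes 2-fold up in each, 5 stand in a row on chromosome 6 between positions 26194411 and 26352692. Such neighbours may share reads, so they are not independent cases. Manes.06G160100, the most expressed of the row, had 25.1, 24.6 and 23.0 FPKM in the MS control, 316, 317 and 319 with ABA and 146, 144 and 143 with PEG. ABA was above PEG for it by 1.33 on the log2 scale (standard error 0.03, edgeR's quasi-likelihood test, adjusted p = 4.03e-12). Manes.06G160800 had more uneven PEG libraries, at 7.44, 9.48 and 4.75 FPKM, against 0.785, 0.668 and 0.880 in the MS control and 20.9, 21.2 and 21.6 under ABA.

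Of 40 tested jasmonate genes, 15 rose and 10 fell, beside 30.1% and 34.2% of all genes tested. Of the 40, 6 (15%) were 2-fold up and 1 (2.5%) was 2-fold down in each, beside 4.71% and 2.01% of all genes tested. Manes.07G002500, nearest to lipoxygenase 2, and Manes.15G146200, nearest to allene oxide synthase, both enzymes of jasmonate synthesis, had 6.29, 6.07 and 6.62 FPKM and 4.10, 3.46 and 3.11 FPKM in the MS control. Under ABA they had 30.1, 30.2 and 30.0 FPKM and 13.7, 14.9 and 14.8 FPKM, and under PEG 17.6, 18.7 and 16.3 FPKM and 8.81, 8.84 and 8.63 FPKM. In both genes ABA was the higher of the agents. Of 13 tested ethylene genes 9 fell and 2 rose, and 2 (15.4%) were 2-fold down in each.

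Turning to the falls, a high share of the EXORDIUM-like genes met the rule. This list was added after the values had been seen, so the share is a description. *EXORDIUM* promotes cell expansion in Arabidopsis leaves. Of 13 tested genes of this kind 10 fell and 1 rose, beside 34.2% and 30.1% of all genes tested. Of the 13, 9 (69.2%) were 2-fold down in each treatment, beside 2.01% of all genes tested. The median log2 fold change of the list was -2.53 under ABA and -1.58 under PEG. A row of 5 of the 9 stands on chromosome 2 between positions 11252422 and 11267420. Manes.02G151100, in the middle of the row, had 68.5, 67.7 and 64.7 FPKM in the MS control, then 2.90, 2.65 and 3.74 under ABA and 6.81, 5.59 and 5.64 under PEG. The other 4 genes of the row were likewise lower under ABA than under PEG.

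Manes.18G065800 on chromosome 18 was the most expressed of the 6 relatives of *EXORDIUM* itself among them, with 334, 329 and 332 FPKM in MS control leaves and 7.79, 8.46 and 8.47 under ABA. Its PEG libraries did not agree, at 43.1, 42.3 and 7.81 FPKM. The third PEG library was down to the ABA level, and all 3 were far below the MS control. Manes.07G033900, nearest to *EXORDIUM like 2*, was the strongest of the 9, with 754, 755 and 691 FPKM, then 305, 314 and 300.7 under ABA, then 263, 275 and 269 under PEG.

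Of the enzymes that set the ABA level, those that break the hormone down held the shared falls. CYP707A proteins are the hydroxylases that start ABA breakdown, and 3 of 6 tested genes were 2-fold down in each treatment, while 2 of the 6 rose in the combined contrast. Over all genes tested 2.01% were 2-fold down in each and 30.1% rose in the combined contrast. Manes.07G081100, nearest to *CYP707A1*, had 119, 122 and 132 FPKM in MS control leaves, 12.5, 13.2 and 13.8 under ABA and 6.22, 5.94 and 4.998 under PEG. Its combined log2 fold change was -3.88 (standard error 0.06, edgeR's quasi-likelihood test, adjusted p = 6.14e-13), and PEG was below ABA by a further 1.39, which is a difference of -1.39 with standard error 0.08. Manes.10G067700, the second relative of *CYP707A1*, had 22.6, 21.1 and 21.8 FPKM, then 2.77, 2.68 and 3.01, then 1.45, 2.00 and 1.46. Manes.18G037400, nearest to *CYP707A4*, had 12.3, 13.3 and 11.8 FPKM, then 3.002, 2.77 and 2.35, then 5.57, 6.66 and 6.66. Of the 7 tested nine-cis-epoxycarotenoid dioxygenases, which make the ABA precursor, 0 were 2-fold in each in 1 direction, and their median log2 fold change was 2.90 under ABA and -0.19 under PEG.

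Of the 10 largest falls the most precise was that of Manes.07G051500, a gene of unknown function with a DUF1005 domain. It had 267, 261 and 249 FPKM in the MS control, 14.6, 15.0 and 15.6 with ABA and 20.7, 20.3 and 20.2 with PEG, with a combined log2 fold change of -3.92 (standard error 0.03, edgeR's quasi-likelihood test, adjusted p = 7.67e-15). Manes.06G155500, nearest to chitinase A, which cuts the chitin of fungal walls, had 60.1, 53.9 and 59.6 FPKM, then 4.63, 5.21 and 3.68, then 9.19, 9.96 and 8.30. The neighbours Manes.07G021800 and Manes.07G022000 on chromosome 7, both nearest to the transcription factor gene *RAV2*, fell in each treatment. The first had 17.1, 15.3 and 16.7 FPKM in the MS control, then 1.09, 0.691 and 0.909 under ABA and 1.92, 2.22 and 0.855 under PEG.

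Among regulators, Manes.05G177900, nearest to *MYB73*, had 120, 122 and 110 FPKM in MS control leaves, 19.95, 17.99 and 18.6 under ABA and 29.4, 29.2 and 28.1 under PEG. Of 99 tested AP2/ERF and DREB factors, a family with many stress regulators, 47 fell and 28 rose, beside 34.2% and 30.1% of all genes tested. Of the 99, 11 (11.1%) were 2-fold down and 8 (8.08%) were 2-fold up in each, beside 2.01% and 4.71% of all genes tested. Manes.14G101900 of this family went from 68.8, 70.8 and 65.9 FPKM to 23.0, 25.6 and 23.8 under ABA and 32.9, 30.7 and 32.0 under PEG. Of 39 tested class III peroxidases, secreted enzymes that act on wall polymers, 7 (17.9%) were 2-fold down and 5 (12.8%) were 2-fold up in each. Both families thus supplied shared changes in both directions.

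More genes of nitrogen uptake and assimilation fell than rose. Of 45 tested 26 fell and 8 rose, beside 34.2% and 30.1% of all genes tested. Of the 45, 5 (11.1%) were 2-fold down and 1 (2.22%) was 2-fold up in each, beside 2.01% and 4.71% of all genes tested. The summed level of the list did not fall under ABA, at 2179 to 2225 FPKM in MS control libraries, 2229 to 2349 in ABA and 2051 to 2101 in PEG libraries. Manes.05G096200, nearest to a nitrate transporter (AT1G69850), had 72.1, 72.6 and 71.5 FPKM in the MS control, 22.8, 23.8 and 24.1 with ABA and 36.5, 35.4 and 35.1 with PEG. The 1 gene 2-fold up in each was Manes.17G114900, nearest to the vacuolar nitrate transporter *NRT2.7*. It had 1.10, 1.44 and 1.12 FPKM, then 7.99, 7.84 and 8.45, then 6.40, 6.40 and 6.91. Of 39 tested flavonoid and phenylpropanoid genes 19 fell and 13 rose, beside 34.2% and 30.1% of all genes tested. Manes.18G022300, nearest to dihydroflavonol 4-reductase, a step towards anthocyanins, had 63.1, 69.0 and 64.8 FPKM in the MS control. It had 24.9, 23.9 and 23.0 FPKM under ABA and 10.7, 11.3 and 11.1 under PEG.

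**Figure D4:**
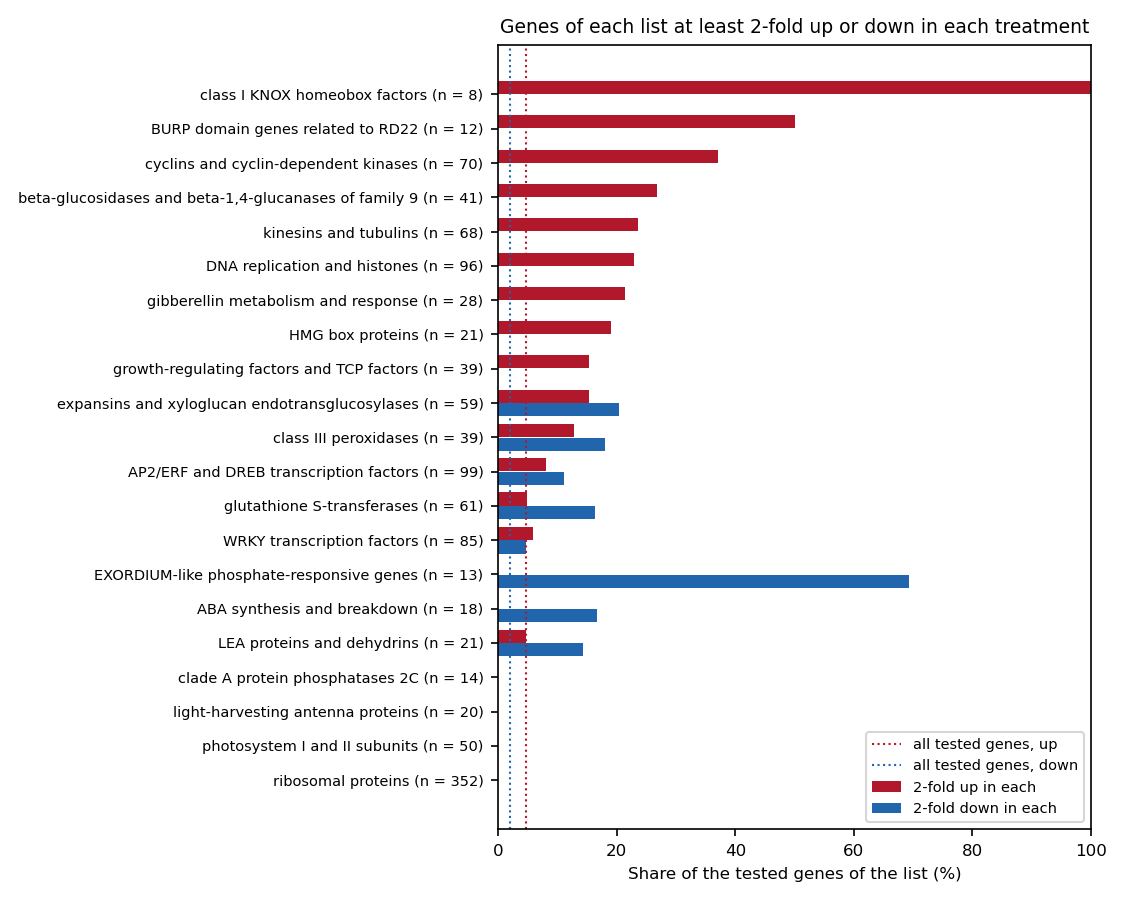
Share of the tested genes of 21 gene lists that were at least 2-fold up (red bars) or 2-fold down (blue bars) in each treatment, in percent, with dotted lines at the shares of all tested genes, 4.71% up and 2.01% down. The class I KNOX bar reaches 100% and the EXORDIUM-like bar 69.2%, while the phosphatases 2C, antenna, photosystem and ribosomal lists have no bar.

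The clade A protein phosphatases 2C and the photosynthesis genes had medians of opposite sign under the agents. The phosphatases had a median log2 fold change of 2.32 under ABA and -2.32 under PEG, and 0 of 14 met the rule. Manes.06G158800, nearest to the ABA-induced phosphatase gene *HAI3*, had 40.9, 38.3 and 39.5 FPKM in MS control leaves, 271, 264 and 269 under ABA and 2.55, 2.45 and 2.80 under PEG. A mean over both agents hides such a gene, and its combined log2 fold change of -0.62 turned to 1.84 when ABA and PEG were fitted as 1 group. The light-harvesting antenna proteins had medians of -0.69 under ABA and 1.35 under PEG, and the photosystem subunits of -0.89 and 0.64, with 0 of 20 and 0 of 50 meeting the rule. In lists this small few genes would meet it at the shares of all genes tested, 4.71% up and 2.01% down, so nothing is read from these counts of 0.

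LEA proteins and dehydrins protect cells as they dry. They rose under ABA in 13 of 21 tested genes and fell under PEG in 17, beside 32.9% and 35.1% of all genes tested. Of the 21, 3 (14.3%) were 2-fold down and 1 (4.76%) was 2-fold up in each, beside 2.01% and 4.71% of all genes tested. Manes.12G112300, of LEA group 6, had 66.2, 58.1 and 55.0 FPKM in the MS control, 10.8, 9.54 and 11.0 with ABA and 0 in all PEG libraries. With no PEG read against 790 in the MS control, the MS control was at least 319-fold higher, taking 3 reads over the group as the floor. Manes.15G075900, of the seed storage albumin family, had 28.7, 23.9 and 21.3 FPKM in the MS control, then 6.14, 5.24 and 5.81 under ABA and 0 in all PEG libraries.

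**Figure D5:**
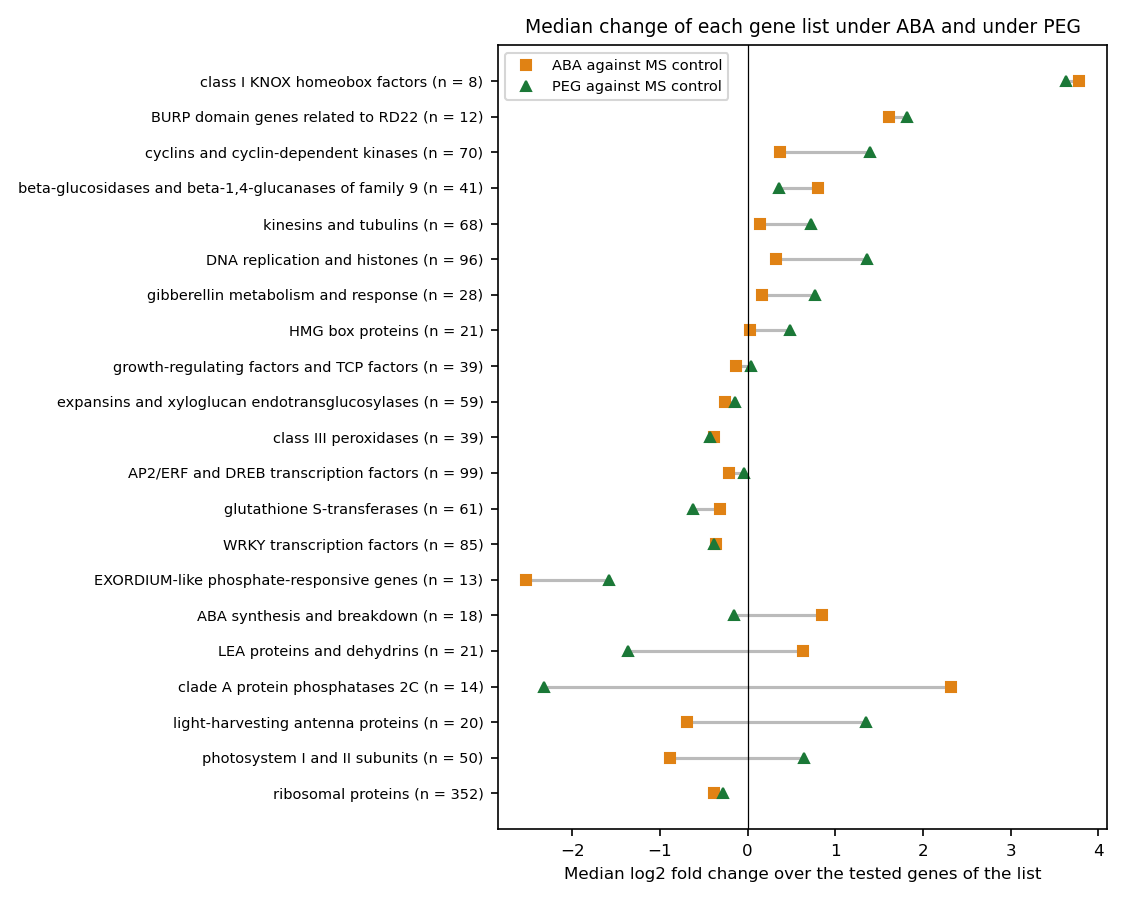
Median log2 fold change of the tested genes of the same 21 lists under ABA (squares) and under PEG (triangles), each against the MS control, with a grey line joining both. Class I KNOX, BURP and cell division lists lie to the right of 0 for both agents and EXORDIUM-like genes to the left, whereas phosphatases 2C, LEA, antenna and photosystem lists lie on opposite sides of 0.

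Lists of genes that mark other tissues moved as follows. The summed level of the 5 guard cell markers was 36.2 to 38.9 FPKM in MS control leaves, 15.3 to 16.5 under ABA and 39.6 to 42.5 under PEG. In the same order, the 29 phloem and xylem markers summed to 419 to 431, 512 to 520 and 364 to 369 FPKM. The 27 root markers summed to 334 to 341, 217 to 218 and 193 to 202 FPKM. The 17 seed and embryo markers summed to 271 to 285, 233 to 243 and 103 to 110 FPKM. These sums cover every listed gene, tested or not. No read in any library was found for 6 of the 27 root genes listed. In none of these 4 lists was the summed level higher than in the MS control under both agents. Counted by gene in the combined contrast, over the tested members only, 13 of 24 phloem and xylem markers rose and 5 fell. Of 15 tested root markers 7 rose and 2 fell. Guard cell markers rose in 1 and fell in 4 of 5, and seed and embryo markers rose in 2 and fell in 6 of 10. Over all genes tested 30.1% rose and 34.2% fell. The root sum under both agents, and the phloem and xylem sum under PEG, thus went against most of the members that passed. In each treatment 2 phloem and xylem markers (8.33%) were 2-fold up, and 2 root (13.3%) and 3 seed and embryo markers (30%) were 2-fold down. No other member of these 4 lists was 2-fold in each. Over all genes tested these shares were 4.71% up and 2.01% down. The KNOX genes are themselves markers of the shoot tip, and the part of young or meristem tissue in the leaf samples in these rises was not tested.

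Shared direction did not mean equal size. Of the 1129 rising genes 810 differed between PEG and ABA in edgeR's quasi-likelihood test (71.7%), close to the 74.7% of all genes tested that did. Of these, 599 were higher under PEG and 211 higher under ABA, and 501 differed at least 2-fold, 412 of them higher under PEG. Over all genes tested 9377 were higher under PEG and 8534 higher under ABA. At least 2-fold differences were seen in 28.9% of all genes tested, 3841 genes higher under PEG and 3082 higher under ABA. Of the 482 falling genes 285 differed (59.1%), and they were split between 146 higher under ABA and 139 higher under PEG. At least 2-fold differences were seen in 164 falling genes, of which 94 were lower under PEG and 70 lower under ABA. In the remaining 319 rising and 197 falling genes no difference between the agents was detected, which does not show that they acted alike.

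The falling genes were more often members of local gene clusters. Of the 434 with an Arabidopsis counterpart, 101 (23.3%) had a tested neighbour within 100 kb with the same nearest Arabidopsis gene, and 55 of these 101 had such a neighbour that was itself 2-fold down in each. Of the 1092 rising genes with a counterpart, 104 (9.52%) had such a neighbour and 41 of them one that was 2-fold up in each, beside 9.57% of all genes tested with a counterpart. Neighbours moved in opposite directions too, as 5 rising genes had a 2-fold falling neighbour of the same kind. Such copies may share reads, so they are not independent cases. In a mixed pair on chromosome 5, Manes.05G059800 and Manes.05G060000, both nearest to a wax synthesis gene (AT1G02205), the first had 0.800, 0.647 and 0.711 FPKM in the MS control, 12.04, 12.2 and 12.5 with ABA and 5.36, 5.03 and 5.75 with PEG. The second had 22.1, 23.1 and 22.1 FPKM, then 4.31, 5.68 and 5.05, then 2.93, 2.81 and 3.17.

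At the edge of the 2-fold rule the members differ little from genes left out. Manes.03G200100 and Manes.10G061800 were the rising genes just inside it, with 1.0011 and 1.0015 under ABA on the log2 scale, and Manes.12G001800 and Manes.18G010200 were just outside, with 0.9986 and 0.9985 under PEG. The last of these, nearest to expansin 11, had 32.5, 30.9 and 32.1 FPKM under ABA against 1.94, 2.62 and 1.98 in the MS control and so misses the rule by its PEG value alone. On the falling side Manes.09G086300 and Manes.16G018700 were just inside with -1.0001 and -1.0011 under ABA. Manes.02G142000 was just outside with -0.9990 under ABA, and so was Manes.S061400 with -0.9979 under PEG. A test that asks for more than 2-fold change, rather than an estimate of 2-fold, kept 594 rises and 256 falls in each treatment.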

How the data were processed

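RNA-seq of mature leaves was analysed for 3 MS control, 3 ABA and 3 PEG libraries. The authors deposited read counts and FPKM values per gene. Per the submitters' processing notes, reads were handled with HISAT2 2.0.4 and with StringTie 1.3.0. The counting tool, its use of strand and its treatment of reads with several matches were not given in the sources used here. Coordinates and gene IDs follow cassava genome v6.1, and each gene is named by its nearest Arabidopsis gene in the deposited table.

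The test on counts was that of edgeR 4.0.16 under R 4.3.3 (TMM scaling, filterByExpr, quasi-likelihood F test, 1 fit of 3 groups), with Benjamini-Hochberg adjustment over the 23984 genes tested. Standard errors are the log2 fold change divided by the root of the F value. Levels are the deposited FPKM values. The test was checked on simulated counts before use. Alternatives used limma 3.58.1 and DESeq2 1.42.0.

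The gene lists are searches in the Arabidopsis identifiers and descriptions given for each gene. The *MePMEs* were instead taken from the published list of these genes. The contrast, the rule and the lists were chosen with earlier results of these data known, and the searches were rewritten and several lists added (class I KNOX, HMG, kinesins and tubulins, β-glucosidases, EXORDIUM-like, BURP, RAV, LEA glycoproteins, GRF and TCP) after the table had been read. Genes are named by rule: the 10 largest rises and 10 largest falls among described genes with at least 5 FPKM in a group and no overlap with the MS control, up to 3 genes of each list by combined p, those at the 2-fold threshold and the *MePMEs* that met the rule. Genes outside it, such as further KNOX, cyclin, expansin and neighbouring genes, were chosen after their values were seen. A planned search of promoters for ABA and drought motifs was not run.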

Additional observations from a re-analysis of the deposited data

How the results depend on the processing

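Counts moved by over 1.5 times in the first 4 settings given here. The main counts were 15423 genes in the combined contrast (7220 rising, 8203 falling), 1129 up and 482 down in each treatment, and 1095 shared genes differing between PEG and ABA. With a mean of at least 5 FPKM these last 3 counts were 209, 185 and 311, and with limma on log2(FPKM + 1), which shrinks low values by construction, 307, 266 and 411. With ABA and PEG as 1 group 5050 genes passed, 2683 rising and 2367 falling. With edgeR's test against a fold of 2 the combined contrast gave 1861 genes, 1113 rising and 748 falling, and 594 and 256 in each treatment. Leaving out each library in turn gave 14271 to 15123 genes, 6598 to 7061 rising, 7673 to 8106 falling, 1088 to 1142 up and 486 to 513 down in each, and 997 to 1085 differing. Other scalings, no filter, DESeq2 and limma with a smaller offset kept each count within 1.5 times. Fits without the PEG or without the ABA libraries, added after seeing the data, gave 15461 and 16745 genes.

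Replicate numbers did not pair the libraries (correlation of deviations -0.04 to 0.07), and with the replicate number as a block 15126 genes passed, with 1113, 486 and 1057 for the other counts.

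Of the rising and falling genes of the 2-fold rule, 306 and 263 still met it with limma on log2(FPKM + 1), and 1003 to 1096 and 438 to 465 with a library left out. In the combined contrast, of 158 named genes 21 kept their direction but lost their call and 3 turned direction and no longer passed, all with ABA and PEG as 1 group. Those that turned were Manes.06G158800 (1.84), Manes.13G132700 (0.014) and Manes.01G069700 (0.22), each of which fell in the combined contrast and moved oppositely under ABA and PEG.

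Genes with few reads in a group limit the precision of the largest folds. Stage of the sampled leaves, harvest time of the MS control, plants per library and the labels of the MS control and PEG could not be checked.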
